A study of Arabidopsis thaliana with 28 samples.

Results

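The first response to abscisic acid (ABA) was read from wild-type Arabidopsis thaliana seedlings of the Col-0 ecotype after 0.5 h of hormone, set against seedlings kept in an ethanol mock for 0.5 h. This comparison holds 4 of the 28 libraries of the series, 2 with ABA and 2 with mock. In the deposited table each pair of libraries appears as 1 pooled FPKM value per gene (fragments per kilobase of transcript, scaled to the number of fragments read), so the comparison rests on 2 of 14 pools. The other 12 pools, taken later from 1 to 24 h, serve here to place the first time within the course (1, 3, 6, 9, 12 and 24 h). All plants had the same wild-type genotype and were sampled as seedlings. The sources used here give neither the ABA dose nor the seedling age, nor whether the 2 libraries of a group came from separate plants.

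Of 33557 entries, 20034 reached 1 FPKM in at least 2 pools and were kept. The effect is log2((ABA + 1)/(mock + 1)), with a pseudocount of 1 FPKM that shrinks the differences of genes near 0. With 1 pooled value per group, no effect at a single time carries a replicate error or a test of its own. The authors' deposited table holds their yes or no call of significance for each gene and time, and "rose" and "fell" are used below only for genes with such a call. The pool of mock at 0.5 h implied about 36100000 fragments and that of ABA about 42300000, within the 34200000 to 50700000 of all 14 pools. The ABA and mock pools at 0.5 h correlated across genes at Pearson r = 0.96 on log2(FPKM + 1), against 0.89 at 3 h. Genes are not independent replicates, and these values only describe the pools.

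ABA is made by plants short of water and in maturing seeds. It is bound by receptors of the PYR/PYL family, which then hold back clade A protein phosphatases of type 2C (PP2C). SnRK2 kinases, freed from these phosphatases, phosphorylate the ABF/AREB class of bZIP transcription factors. These factors bind ABA-responsive elements (ABRE), short promoter sequences with an ACGT core, upstream of genes for dehydration tolerance.

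After 0.5 h, 742 of the 20034 genes were at least 2-fold higher under ABA (3.7%) and 431 at least 2-fold lower (2.15%). The authors' deposited table marked 2049 of the kept genes as higher (10.2%) and 2254 as lower (11.3%). Both conditions were met in the authors' deposited table by 656 genes that rose (3.27%) and 357 that fell (1.78%). The median effect over all kept genes was -0.03, and 80.5% of genes lay within 0.5 of 0. At the edge of the 2-fold limit, AT5G52552 lay just inside with an effect of 1.002, and PYD4, an aminotransferase of pyrimidine breakdown, lay just outside with 0.997. On the lower side AT2G32240 stood at -1.0004 and AT1G03820 at -0.9992. Of the genes at least 2-fold apart, 160 had no call in the authors' deposited table. Their median level over both pools was 2.33 FPKM.

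Among genes with a call and a mean of at least 5 FPKM over both pools, the largest rise belonged to PUB19, a U-box ubiquitin ligase that dampens ABA signalling. Its gene (chr1:22198266-22200687 in TAIR10.1, + strand) has a single exon. PUB19 stood at 0.556 FPKM in the mock pool and 109.7 in the ABA pool, an effect of 6.15. In the 7 mock pools from 0.5 to 24 h it stood at 0.556, 0.619, 0.342, 0.408, 0.275, 0.154 and 0.412 FPKM, and in the 7 ABA pools at 109.7, 132, 51.2, 28.7, 23.3, 22.3 and 14.9 FPKM. Its mock level was thus under 1 FPKM throughout, and each ABA pool lay above every mock pool. HAI1, a clade A PP2C phosphatase, rose from 0.930 to 126 FPKM, an effect of 6.03. DIP2, annotated as a ubiquitin ligase, rose from 0.978 to 92.0 FPKM. EDL3, an EID1-like F-box protein, rose from 0.456 to 49.0 FPKM. All 4 rose from mock levels under 1 FPKM.

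HSFA6B, a heat shock transcription factor, rose from 1.48 to 83.3 FPKM. MAPKKK18, a kinase at the head of a mitogen-activated kinase cascade, rose from 0.894 to 41.6 FPKM. CBF3 and CBF1, AP2-type activators of cold and drought genes, rose from 0.840 to 41.2 and from 2.56 to 72.5 FPKM. GOLS2 makes galactinol, the precursor of the protective sugar raffinose, and rose from 1.21 to 47.1 FPKM. LEA4-5, a late embryogenesis abundant protein that shields cell contents during drying, rose from 18.4 to 409 FPKM and had the highest ABA level of the 15. The other 5 are AT5G50360, with a von Willebrand factor A domain, AT5G45630, a DUF584 protein, AT1G49450, a WD40-repeat protein, and the uncharacterized AT5G15190 and AT3G27250. Their effects at 0.5 h lay between 4.22 and 4.47.

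The largest fall among such genes was that of the ABA receptor PYL6, from 42.8 to 0.194 FPKM, an effect of -5.20. Its gene (chr2:16844588-16846194 in TAIR10.1, - strand) also has a single exon. In the 7 mock pools PYL6 stood at 42.8, 42.3, 92.6, 68.8, 64.7, 56.3 and 63.7 FPKM, and in the 7 ABA pools at 0.194, 0.458, 0.199, 0.0732, 0.0754, 0.0788 and 0 FPKM. So its transcript was already near 0 at 0.5 h and stayed there, although the authors' deposited table holds no call for it at 6, 9 and 12 h. AT1G72416, a protein with a DnaJ domain, the co-chaperone domain that works with HSP70, fell from 103 to 3.23 FPKM. PYL4 and PYL5, receptors of the PYL6 subfamily, fell from 209.8 to 17.1 and from 221 to 22.1 FPKM. ERF107, an AP2-type factor also known as DEWAX, a repressor of wax synthesis, fell from 290.2 to 27.0 FPKM. AT2G15128, a noncoding RNA of 213 bases, was listed at 19.8 FPKM in the mock pool and at 0 in the ABA pool. In the later pairs of pools its effects lay between -1.03 and 0.61, and the authors' deposited table called it at 0.5 h alone.

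AT4G34810 and AT4G34770 encode SAUR proteins, small proteins known from auxin-driven cell expansion, and fell with effects of -3.10 and -2.51. BEE1, a bHLH factor of brassinosteroid-driven growth, fell from 90.0 to 13.8 FPKM. ORS1, an ORGAN SIZE-like protein, fell from 9.88 to 0.971 FPKM. EARLI1, a lipid-transfer-like protein, fell from 184 to 24.2 FPKM. It lies in a cluster of similar genes, and the sources used here do not say how shared reads were counted. ADH1, alcohol dehydrogenase of fermentation, fell from 134 to 19.6 FPKM. The HSP20-like AT4G21870, the F-box protein AT2G36090 and the uncharacterized AT5G35732 had effects of -2.91, -2.67 and -2.45. All 3 also fell.

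**Figure D1:**
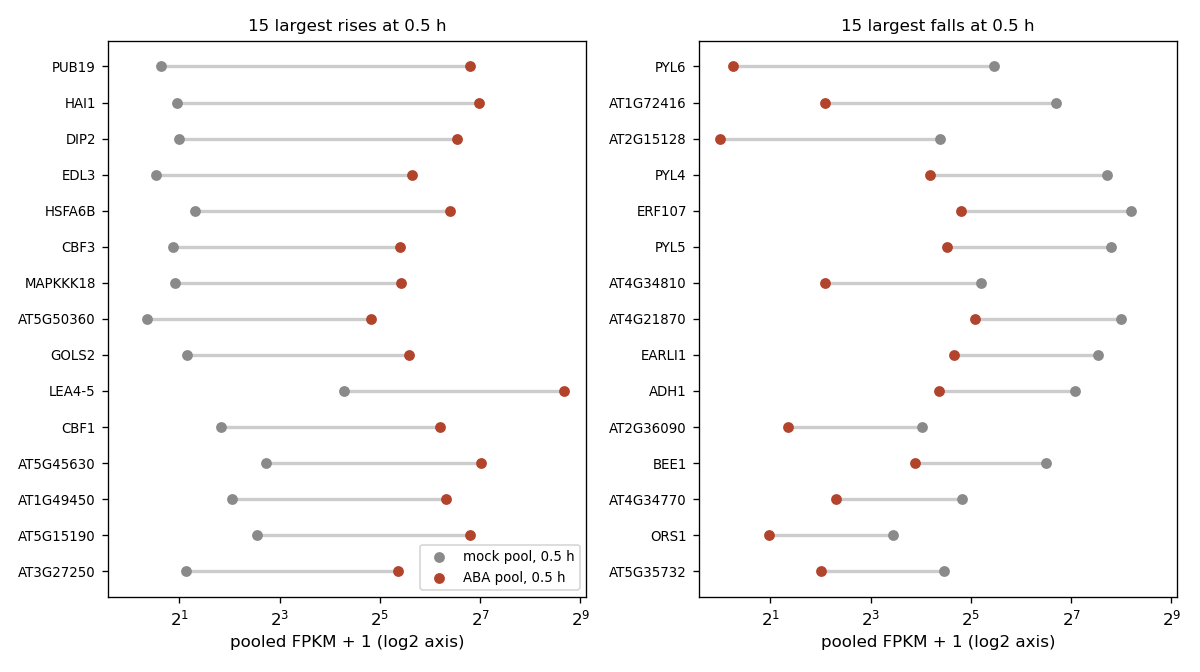
Pooled FPKM + 1 on a log2 axis in the mock pool (grey) and the ABA pool (red) at 0.5 h for the 15 largest rises and the 15 largest falls among genes with the authors' call and a mean of at least 5 FPKM. The rises start from mock levels of 0.276 to 18.4 FPKM and the falls from 9.88 to 290.2 FPKM.

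The upstream sequences of 4 of these rises and 2 of the falls are shown because they carry, or lack, the ABRE-type match that was more frequent in the group that moved up. They are the 250 bases before the annotated start of each gene in RefSeq's TAIR10.1 annotation, read on the gene's strand. Capitals mark each match to the ABRE-type motif ACGTGNC on either strand.
PUB19 (chr1:22198016-22198265, + strand): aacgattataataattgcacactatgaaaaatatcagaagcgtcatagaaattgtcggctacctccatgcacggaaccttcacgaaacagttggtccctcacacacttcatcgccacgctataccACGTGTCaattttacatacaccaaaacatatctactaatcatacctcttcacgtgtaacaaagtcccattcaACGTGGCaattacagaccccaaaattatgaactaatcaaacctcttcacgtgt
MAPKKK18 (chr1:1469291-1469540, + strand): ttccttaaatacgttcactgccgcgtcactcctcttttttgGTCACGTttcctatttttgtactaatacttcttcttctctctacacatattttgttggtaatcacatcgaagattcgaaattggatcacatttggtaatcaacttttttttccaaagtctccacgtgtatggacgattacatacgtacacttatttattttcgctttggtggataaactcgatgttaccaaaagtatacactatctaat
AT5G50360 (chr5:20506355-20506604, - strand): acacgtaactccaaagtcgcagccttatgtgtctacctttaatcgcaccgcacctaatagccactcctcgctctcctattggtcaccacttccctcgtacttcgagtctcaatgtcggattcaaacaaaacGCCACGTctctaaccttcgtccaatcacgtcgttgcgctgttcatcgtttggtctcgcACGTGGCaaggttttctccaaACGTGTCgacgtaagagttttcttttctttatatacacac
LEA4-5 (chr5:2090431-2090680, - strand): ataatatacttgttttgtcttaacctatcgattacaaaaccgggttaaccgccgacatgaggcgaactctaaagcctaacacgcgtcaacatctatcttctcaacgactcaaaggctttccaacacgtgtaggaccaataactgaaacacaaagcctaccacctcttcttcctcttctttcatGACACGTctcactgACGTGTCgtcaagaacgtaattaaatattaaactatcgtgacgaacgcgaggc
PYL6 (chr2:16846195-16846444, - strand): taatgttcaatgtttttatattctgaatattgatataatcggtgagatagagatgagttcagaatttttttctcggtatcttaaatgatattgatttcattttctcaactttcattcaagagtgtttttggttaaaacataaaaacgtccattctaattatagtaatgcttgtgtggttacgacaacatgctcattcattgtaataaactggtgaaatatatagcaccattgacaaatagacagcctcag
AT1G72416 (chr1:27260522-27260771, - strand): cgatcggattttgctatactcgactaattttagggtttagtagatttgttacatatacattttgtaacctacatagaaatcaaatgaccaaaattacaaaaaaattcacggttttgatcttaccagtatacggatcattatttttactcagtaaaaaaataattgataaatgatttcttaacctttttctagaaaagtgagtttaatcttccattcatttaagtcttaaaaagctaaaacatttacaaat

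PUB19 holds matches that begin 125 and 53 bases before its start, and LEA4-5 holds matches at 67 and 53 bases. AT5G50360 has 3, at 119, 61 and 40 bases, and MAPKKK18 has 1, at 209 bases. The windows of PYL6 and AT1G72416 hold none, which says only that these letters do not stand there. Of the 15 largest rises 5 have such a match, and of the 15 largest falls 2, ADH1 and BEE1.

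Across the whole first response, an ABRE-type match on either strand stood in 28.2% of the upstream windows of the genes 2-fold higher at 0.5 h. It stood in 5.87% of the windows of those 2-fold lower and in 9.97% of the 19927 windows of all kept genes. At least 2 matches were found in 12.1% of the windows of the higher genes, against 2.44% of all. Among genes at least 4-fold higher at 0.5 h (0.804% of all genes), 35.4% held a match. The share among higher genes was 23.8% at 1 h, 19.4% at 3 h, and between 19.7% and 21.3% at the later times. Genes that first became 2-fold higher at 3 h held it in 14.9% of windows. The share was thus largest at the first time and smaller at each of the other 6.

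The G-box CACGTG overlaps this motif, with 1032 windows holding both, and stood in 23.4% of the windows of the higher genes against 7.73% of all. The drought-responsive core CCGAC, to which CBF and DREB proteins bind, stood in 16.7% against 13.0%. Shares close to those of all genes were found for the W-box (TTGACC or TTGACT), which WRKY proteins bind, with 27.4% against 28.2%. The evening element AATATCT of the clock stood in 11.4% of the higher windows against 10.2%. The rapid stress element CGCGTT stood in 3.67% against 2.795%, and the telo-box AAACCCT, known from genes of growth and ribosomes, in 3.81% against 6.16%. A match describes the letters of a window and does not show that a factor binds there.

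The gene models of the first response held fewer exons than those of all kept genes. A single exon made up the whole gene model in 37.9% of the higher and 41.1% of the lower genes at 0.5 h, against 17.1% of all kept genes. At 1 h these shares were 32.04% and 39.7%, and at 3 h 24.4% and 26.4%. From 6 to 24 h they lay between 25.0% and 27.4% for the higher and between 25.3% and 30.4% for the lower genes. Among genes that first passed 2-fold at 3 h they were 18.6% of the higher and 20.6% of the lower. The median transcript was 1339.5 bases for the higher and 1288 bases for the lower genes at 0.5 h, against 1705 for all. Short transcripts were not particular to this time. The later medians lay between 1395 and 1566 bases for the higher genes and between 1142 and 1535.5 for the lower. The shortest was that of the lower genes at 24 h. At 0.5 h, transcripts under 500 bases made up 3.53% of the higher and 6.81% of the lower genes against 1.09% of all. The part of transcript length in the difference was not tested, but without these short transcripts the single-exon shares were 36.7% and 39.3%, against 16.6% of all genes.

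**Figure D2:**
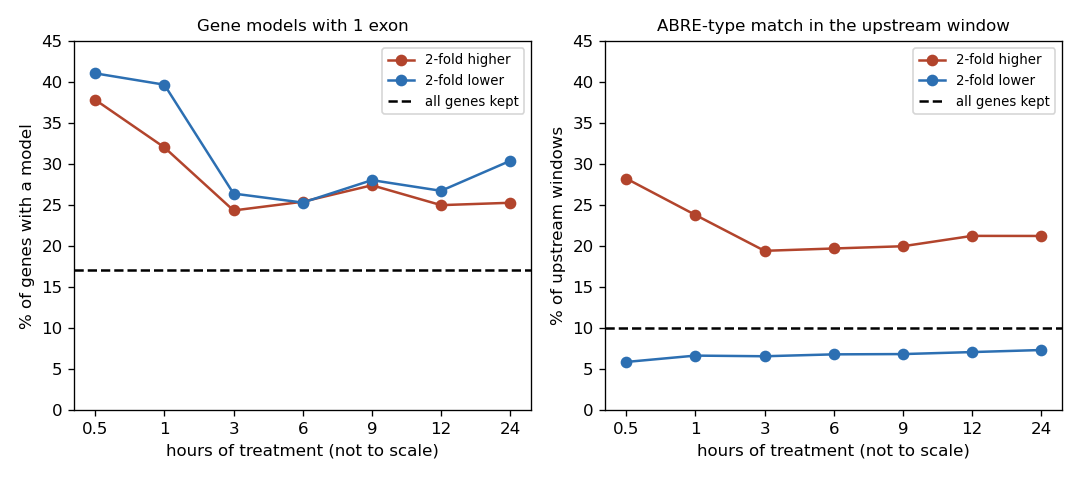
Share of genes at least 2-fold higher (red) or lower (blue) at each time that have a gene model of 1 exon (left, % of genes with a model) or an ABRE-type match in the 250 bases upstream (right, % of windows); the dashed line is the share of all kept genes. Single-exon models are most frequent at 0.5 h in both directions, at 37.9% and 41.1%, and the ABRE-type share of higher genes is largest at 0.5 h, at 28.2%.

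Product names with words such as transcription factor, DNA-binding, zinc finger or MYB made up 9.43% of the higher and 9.05% of the lower genes, against 5.93% of all. That grouping by product words was made after seeing the data. It misses some factors, CBF1 and CBF3 among them, and can take in zinc finger proteins that are not transcription factors. In mock seedlings the higher genes had a median of 4.85 FPKM, the lower genes 14.6 and all genes 11.4. The mock level is part of the effect that chose these genes, and a like gap stood at 1 h, with 4.78 FPKM for the higher and 16.7 for the lower genes of that time.

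Most of the genes higher at first were still higher at 1 h. Of the 742 genes 2-fold higher at 0.5 h, 564 (76.0%) were also 2-fold higher at 1 h, where 6.22% of all genes were. At 3 h 509 were (11.4% of all), at 6 h 452 (9.14%), at 9 h 457 (7.62%), at 12 h 407 (7.68%) and at 24 h 376 (50.7% of the 742, against 6.19% of all). At every one of the 7 times 301 (40.6%) were 2-fold higher, and 97 (13.1%) were so at 0.5 h alone. Smaller shares of the lower genes lasted. Of 431, 264 (61.3%) were 2-fold lower at 1 h (2.95% of all genes), 217 at 3 h (6.55%), 196 at 6 h (7.22%), 182 at 9 h (5.48%), 150 at 12 h (5.79%) and 168 (39.0%) at 24 h (5.86%). All 7 times were shared by 93 (21.6%) of the lower genes, and 95 (22.0%) were 2-fold lower at 0.5 h alone. The effect in that direction was largest at 0.5 h for 184 (24.8%) of the higher and 162 (37.6%) of the lower genes. Both sets were chosen by their effect at 0.5 h, which by itself favours a largest effect at that time.

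At 3 h 2275 genes were 2-fold higher and 1313 lower, and 22.4% and 16.5% of them had been so at 0.5 h, against 3.7% and 2.15% of all kept genes. The authors' deposited table marked 967 of the 2275 as already higher and 595 of the 1313 as already lower at 0.5 h. Over all kept genes it marked 10.2% as higher and 11.3% as lower at that time. Of the 1246 genes 2-fold higher and the 591 lower at 1 h, the authors' deposited table marked 885 and 403 in that direction at 0.5 h. The median effect of the 742 higher genes was 1.43 at 0.5 h, 1.73 at 1 h, 1.71 at 3 h and 1.03 at 24 h. For the 431 lower genes the size of the median fell from 1.33 at 0.5 h to 1.23 at 1 h, 1.01 at 3 h and 0.75 at 24 h. The genes were picked by their size at 0.5 h, so these medians describe the chosen genes and test nothing.

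**Figure D3:**
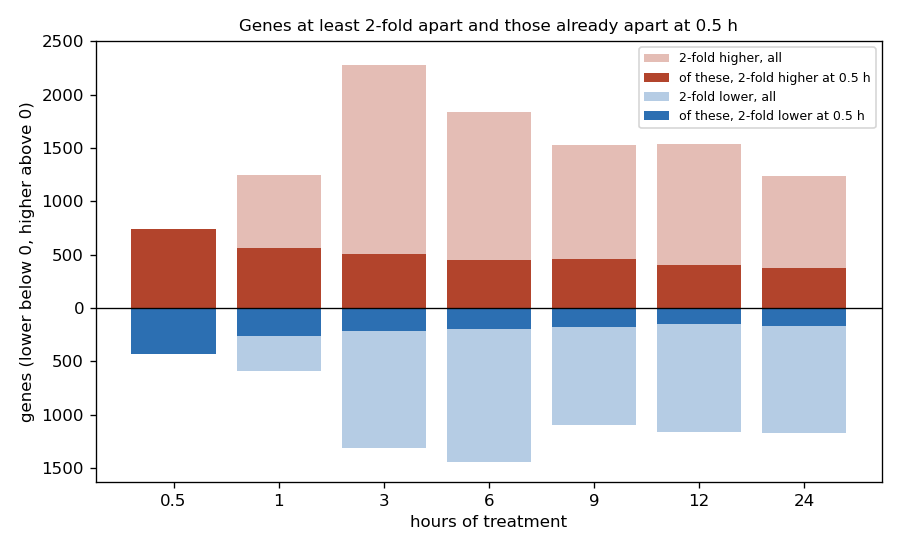
Number of genes at least 2-fold higher (above 0) or lower (below 0) under ABA at each time, with the genes already apart in the same direction at 0.5 h in full colour. Of the 2275 higher and 1313 lower genes of 3 h, 509 and 217 were already apart at 0.5 h, where 3.7% and 2.15% of all kept genes were.

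The pools of 0.5 h were also set against the whole mock course, although the choice of genes by these same pools fixes much of the outcome. In 704 of the 742 (94.9%, against 22.9% of all genes) the ABA pool at 0.5 h lay above all 7 mock pools, and in 87 (11.7%, against 18.2%) the mock pool at 0.5 h lay below the 6 later mock pools. Of the lower genes, the ABA pool lay below all 7 mock pools in 317 of 431 (73.5%, against 23.9%). The mock pool at 0.5 h lay above the 6 later ones in 152 (35.3%, against 21.9% of all). For those 152 genes the mock seedlings of 0.5 h were themselves higher than at any later time, and the part of that early mock level in the falls was not tested.

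No gene differed between 0.5 h and the mean of the 6 later times after adjustment over 20034 genes in limma (0% called in each direction). The smallest Benjamini-Hochberg adjusted p in limma was 0.309. At an unadjusted p under 0.05 in limma, 656 of the 20034 genes had an effect at 0.5 h above the later mean and 1121 below it. With no true difference, a share of 0.05 of all tests would be expected to pass that limit. Higher and lower in this comparison mean above and below the later mean, so a gene merely less reduced at 0.5 h counts as higher. The error of this fit is the spread of the ABA effect over the later times, with 5 residual degrees of freedom, which includes real change. Leaving out the 1 h pools changed the outcome to 303 genes higher and 421 lower at 0.5 h, and leaving out the 12 h pools to 1 higher. Without a filter on low values, 17 genes were higher and 11 lower. Early and later effects are therefore given below as values, without a claim that a gene is particular to 0.5 h.

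Among the genes 2-fold apart at 0.5 h, 2 higher and 8 lower ones were within 0.5 of 0 at each later time, and 5 of these 10 had a mean of at least 5 FPKM. ATL8, a RING-type ubiquitin ligase, rose from 3.08 to 8.54 FPKM at 0.5 h. Its later effects lay between -0.44 and 0.32. TIP, a NAC factor first known as a partner of a viral coat protein, rose from 24.0 to 52.8 FPKM. XTH9, an enzyme that cuts and rejoins xyloglucan in growing cell walls, fell from 433 to 172 FPKM. XTH9 stood at 433, 269, 88.6, 80.6, 99.6, 94.5 and 134 FPKM in the mock pools and at 172, 213, 96.4, 78.2, 80.7, 88.3 and 106 in the ABA pools. Both arms came down over time and ABA and mock stood 2-fold apart at the first time. AT5G28300, a homeodomain-like protein, and the uncharacterized AT1G66190 fell from 7.43 to 3.03 and from 13.5 to 6.22 FPKM.

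The counts of calls in the lists below stand beside 10.2% of all kept genes marked higher and 11.3% marked lower. Within the ABA pathway itself, receptors moved in both directions. Of 9 receptors kept (14 listed), the authors' deposited table marked 2 as higher and 6 as lower, and the median effect was -0.91. Beside PYL6, PYL4 and PYL5, PYR1 fell from 124 to 54.2 FPKM, while PYL7 and PYL9 rose, PYL7 from 9.31 to 18.7 and PYL9 from 12.6 to 18.6 FPKM. At 0.5, 1 and 3 h the effects of PYL7 were 0.94, 1.37 and 0.07, and those of PYL9 were 0.53, 0.70 and -0.08. Summed over the 9 receptors kept, 773 FPKM in the mock pool compared with 231 in the ABA pool.

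The clade A PP2C phosphatases, which block the SnRK2 kinases, all rose, 9 of 9 by the calls of the authors' deposited table. Their summed level was 114 FPKM under mock and 867 under ABA. HAI2 rose from 0.0918 to 18.0 FPKM, HAI3 from 0.135 to 16.6, and PP2CA from 46.2 to 367. None of the 9 had its largest effect at 0.5 h, and the list median went from 2.73 at 0.5 h to 4.40 at 3 h. The SnRK2 kinases themselves moved little, with a median of -0.09 over 10 members. By the calls of the authors' deposited table, SNRK2.9 and SNRK2.7 rose, to effects of 0.90 and 0.75. SNRK2.6, the OST1 kinase of guard cells named here after its values were seen, had an effect of -0.25 at 0.5 h and 1.46 at 3 h.

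Among 8 ABF and ABI factors kept, the authors' deposited table marked 6 as higher and 1 as lower. GBF3, a G-box-binding bZIP protein, rose from 9.56 to 75.5 FPKM. ABF2, ABF3 and ABF4, which act through ABRE sequences in seedlings, had effects of 1.93, 1.78 and 1.08 and rose. EEL, a bZIP factor of seeds, fell with an effect of -0.60. Of the 4 AFP proteins, which bind and restrain ABI5-type factors, 3 rose. AFP1 led them, from 4.22 to 91.6 FPKM.

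Of 15 ubiquitin ligases of the pathway, the authors' deposited table marked 3 as higher and 3 as lower, where it marked 10.2% and 11.3% of all kept genes. Their median effect was 0.14. Beside PUB19, its relative PUB18 rose from 1.02 to 9.75 FPKM, and its effect of 2.41 at 0.5 h stood at 1.89 at 1 h and 0.66 at 6 h. RHA2A, a RING ligase that promotes ABA responses, fell from 39.2 to 17.7 FPKM. RHA2B, its close relative, rose with an effect of 0.64. PUB23 and PUB22 fell with effects of -0.60 and -0.45.

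Genes that make and clear ABA moved at single steps. NCED3, the dioxygenase that limits ABA synthesis under drought, rose from 0.951 to 23.7 FPKM. Its 7 ABA pools held 23.7, 19.0, 19.8, 14.1, 13.8, 10.4 and 8.37 FPKM, with the highest value at 0.5 h. Its largest effect against mock nevertheless came at a later time. Of the 6 synthesis genes kept, ABA3 fell with an effect of -0.45. CYP707A1, the hydroxylase that breaks ABA down, rose from 9.35 to 57.4 FPKM, and ABCG25, an exporter of ABA, from 15.8 to 39.6. NPF4.6, an importer of ABA, fell from 36.9 to 20.7 FPKM. Over the 10 genes of breakdown, conjugation and transport, the authors' deposited table marked 5 as higher and 1 as lower. Their median was 0.38.

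Targets that protect dried cells were already high at 0.5 h. Of 26 LEA, dehydrin and cold-regulated genes, 24 were higher and none lower by the calls of the authors' deposited table, and the median effect was 1.79. The exceptions were SAG21 and EM1, with effects of 0.32 and 0.55. RD29B rose from 3.98 to 65.7 FPKM, RD20, a caleosin of lipid bodies, from 3.34 to 52.5, and RD29A from 12.8 to 155. For each of the 23 that were 2-fold higher at 0.5 h the largest effect came later, and the list median was 3.44 at 1 h and 5.62 at 3 h. LEA4-5 stood at 409, 1154, 2377, 1443, 889, 685 and 408 FPKM over the 7 ABA pools and at 18.4, 7.97, 4.97, 3.26, 3.01, 2.61 and 4.70 over the mock pools. In 14 of the 26 the mock pool at 0.5 h was the highest of the mock pools, as it was for LEA4-5 and for 21.9% of all kept genes. COR15A and COR15B, and KIN1 and KIN2, are pairs of near-identical copies, and their separate values are uncertain. An ABRE-type match stood in 13 of the 26 upstream windows, against 9.97% of the windows of all kept genes.

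Osmolyte genes moved in both directions. P5CS1, the enzyme that limits proline synthesis, rose from 24.7 to 168 FPKM. PRODH1, which degrades proline, fell from 233 to 54.6 FPKM. RS5, a raffinose synthase, rose from 11.1 to 36.5 FPKM. With GOLS2 these were 4 of the 8 genes kept, and the list median was 0.34.

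The CBF and DREB factors had their highest median at 0.5 h. Of the 11 kept, 9 were higher by the calls of the authors' deposited table, and 8 of the 9 that were 2-fold higher had their largest effect at 0.5 h. Among all 742 genes 2-fold higher at 0.5 h, 24.8% had their largest higher effect then. Choice by the effect at 0.5 h favours that time. The list median of 1.99 at 0.5 h went to 1.70, 0.92 and 0.45 at the next 3 times. CBF1 stood at 72.5, 18.5, 4.24, 1.27, 0.916, 0.298 and 0.222 FPKM in the ABA pools and at 2.56, 1.19, 0, 0, 0.0695, 0 and 0.0797 in the mock pools. Its ABA level thus came down after the first time, and both arms ended near 0. CBF4, an ABA- and drought-driven member, was listed at 0 FPKM under mock and 11.2 under ABA at 0.5 h. CBF2 rose from 12.3 to 164 FPKM, but CBF1, CBF2 and CBF3 are near-identical neighbours, and the sources used here do not say how shared reads were counted. DREB2A, a drought and heat activator named here after its values were seen, rose from 8.34 to 47.8 FPKM. Among the 11 upstream windows 5 held an ABRE-type match and 5 the evening element, against 9.97% and 10.2% of the windows of all kept genes.

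Among 10 stress NAC factors the authors' deposited table marked 7 as higher and 1 as lower, and their median was 1.70. RD26 rose from 20.1 to 187 FPKM, NAC019 from 0.185 to 9.52, NAC032 from 51.4 to 364 and NAC055 from 3.64 to 21.6. At 24 h the effects of these 4 were 2.71, 2.82, 0.94 and 0.23. VNI2, a repressor of xylem vessel formation, was the one that fell, from 103 to 46.5 FPKM. Of 12 MYB factors the authors' deposited table marked 8 as higher, and their median was 1.48. MYB102 rose from 0.484 to 25.4 FPKM, MYB74 from 4.39 to 77.9, and MYB41, a regulator of suberin and cutin, from 2.11 to 22.8. MYB96, an activator of cuticular wax genes, rose with an effect of 1.78. Among 13 HD-Zip I factors the authors' deposited table marked 5 as higher. The largest effects were those of HB12 at 3.43 and HB7 at 3.26, factors known to restrain growth in drought.

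**Figure D4:**
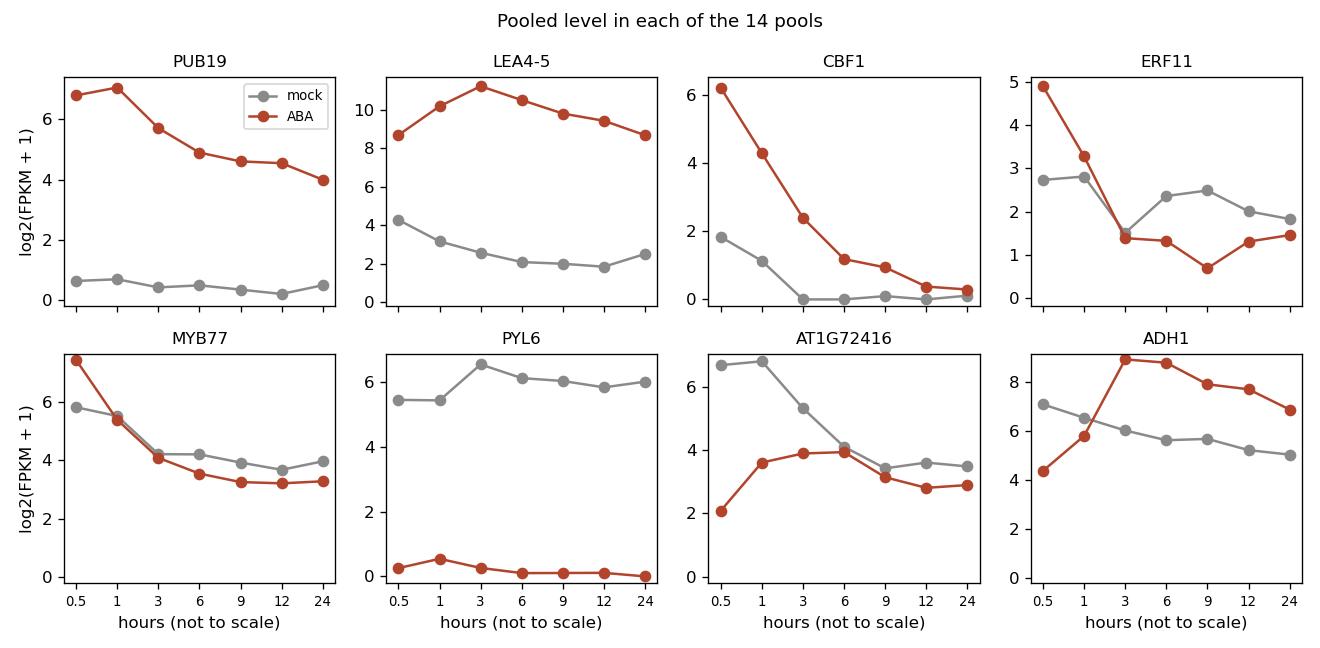
Pooled level as log2(FPKM + 1) in the 7 mock pools (grey) and 7 ABA pools (red) for 8 genes, chosen after their values were seen to show different courses. PUB19 and PYL6 stay apart at all times, LEA4-5 goes on rising to 3 h, CBF1, ERF11 and MYB77 are highest under ABA at 0.5 h, AT1G72416 is near the mock level at 6 h, and ADH1 crosses from lower to higher.

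MYB77, a MYB factor of auxin and stress responses chosen after its values were seen, rose from 54.9 to 170.4 FPKM at 0.5 h. At 1 h its mock and ABA pools stood at 44.4 and 40.4 FPKM, and its effect at 0.5 h exceeded the later mean by 2.07 with a standard error of 0.28, an adjusted p of 0.309 in limma. ERF11, a repressor-type ethylene response factor, rose from 5.65 to 29.0 FPKM at 0.5 h and stood at 6.03 and 8.71 at 1 h. ERF8, of the same repressor class, rose from 12.6 to 114 FPKM and remained higher, with an effect of 1.22 at 24 h. ERF109 had an effect of 2.17 from under 5 FPKM in both pools, and no call in the authors' deposited table.

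Over the 14 ERF factors of group B the median effect went from 0.35 at 0.5 h to -0.71 at 1 h. At 0.5 h the authors' deposited table marked 5 of them as higher and 1, ERF107, as lower. Of the 6 that were 2-fold apart, 5 had their largest effect at 0.5 h. Among all kept genes 2-fold apart at 0.5 h, 24.8% of the higher and 37.6% of the lower had theirs then, in that direction. The median mock level of the list on the log2(FPKM + 1) scale went from 3.88 at 0.5 h to 4.68 at 1 h, and the median ABA level from 4.86 to 3.34. Between these times the mock median went up and the ABA median came down. For 14 touch and calcium genes the median went from 0.46 to -0.27, and the authors' deposited table marked 6 as higher and 2 as lower at 0.5 h. CML37, a calmodulin-like protein of wounding, rose from 1.5003 to 8.22 FPKM. TCH4, a touch-induced cell-wall enzyme chosen after its values were seen, stood at 1370.2 and 1243 FPKM in the mock pools of 0.5 and 1 h and at 56.2 at 3 h. Its ABA pools held 967, 674 and 82.2 FPKM at the same times, so it was high at the start in both arms.

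C2H2 zinc fingers and WRKY factors gave mixed counts. The zinc finger repressor AZF2 rose from 4.27 to 63.8 FPKM and its relative AZF3 fell from 33.8 to 7.66. ZAT6 rose from 23.8 to 67.9 FPKM. Of the 10 zinc fingers the authors' deposited table marked 4 as higher and 2 as lower, and the list median went from 0.35 at 0.5 h to -0.48 at 1 h. WRKY33, an activator of defence against fungi, rose from 30.7 to 89.5 FPKM at 0.5 h. At 1 h the authors' deposited table marked WRKY33 as lower, with 56.6 FPKM under mock and 33.7 under ABA. WRKY18 and WRKY60, which act together in ABA and defence signalling, fell from 146 to 39.4 and from 5.78 to 1.56 FPKM. Of 15 WRKY factors the authors' deposited table marked 4 as higher and 2 as lower. Over all kept genes it marked 10.2% and 11.3%.

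Most jasmonate genes rose at first. Of 28 genes of jasmonate synthesis, turnover and JAZ repression, the authors' deposited table marked 20 as higher and 2 as lower. Their median was 0.87, followed by 0.83 at 1 h and 0.13 at 3 h. MYC2, the main activator of jasmonate responses, rose from 23.8 to 134 FPKM, and its ABA pools held 134, 78.4, 20.4, 20.8, 19.6, 16.6 and 17.2 FPKM over the 7 times. CYP94B3, which inactivates jasmonoyl-isoleucine, rose from 1.37 to 28.6 FPKM and kept an effect of 2.82 at 24 h. CYP94C1, another enzyme of its turnover, fell from 11.03 to 3.03 FPKM, and JAZ6 fell with an effect of -0.93. The effect of MYC2 was 0.34 at 3 h, where that of CYP94B3 was 3.94.

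Hypoxia genes were the list with the lowest median at 0.5 h, -1.36. Of 24 core genes induced by low oxygen, the authors' deposited table marked 18 as lower and none as higher. HRE1, an ERF factor of hypoxia, fell from 20.2 to 2.98 FPKM, SAD6, a fatty acid desaturase, from 86.3 to 15.5, and PDC1, which feeds ethanol fermentation, from 38.1 to 6.74. ADH1 stood at 134, 91.5, 63.6, 48.1, 49.9, 36.1 and 31.6 FPKM in the mock pools and at 19.6, 54.5, 481, 437, 237, 206 and 116 in the ABA pools. The mock level came down from 134 to 31.6 FPKM over the course, and ADH1 went from lower to higher under ABA between 1 and 3 h. In 10 of the 24 genes the mock pool at 0.5 h was the highest mock pool, and in 11 the ABA pool lay below all 7 mock pools. Over all kept genes these shares were 21.9% and 23.9%. The part of the early mock level in these falls was not tested.

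Of 18 Aux/IAA and GH3 genes of auxin response, the authors' deposited table marked 1 as higher, GH3.5, and 6 as lower. The shares of all kept genes so marked were 10.2% and 11.3%. IAA4 fell from 95.4 to 43.4 FPKM and GH3.3, which conjugates auxin, from 11.3 to 5.28, with an effect of 2.25 later at 3 h. Of 9 type-A response regulators, which damp cytokinin signalling, the authors' deposited table marked 1 as higher and 3 as lower. ARR16 fell from 18.0 to 7.03 FPKM and ARR5 rose from 24.2 to 40.6. ARR7, chosen after its values were seen, stood at 155 and 159.9 FPKM at 0.5 h and had later effects averaging -1.60.

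Of 11 gibberellin genes the authors' deposited table marked 2 as higher and 2 as lower. It marked 10.2% and 11.3% of all kept genes. GA2OX6, which inactivates gibberellin, rose from 7.25 to 24.2 FPKM, and GA20OX1 and GA3OX1, which make it, fell with effects of -0.79 and -0.73. For ethylene synthesis, the authors' deposited table marked 1 of 6 genes as higher and 3 as lower. ACS6, a stress-driven synthase of the ethylene precursor, rose from 20.6 to 51.7 FPKM, while ACO4, an oxidase of the last step, fell with an effect of -0.62. Salicylate defence genes had a median of 0.06 over 12 genes at 0.5 h, and by the calls of the authors' deposited table CBP60G, SARD1 and EDS1 rose. That median was -2.05 at both 9 and 12 h.

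Of 18 cell wall and growth genes, the authors' deposited table marked 4 as higher and 7 as lower, around a median of -0.09. For all kept genes the shares were 10.2% and 11.3%. HBI1, a bHLH factor of cell elongation, fell from 59.4 to 21.9 FPKM, and XTH25 rose from 0.932 to 2.94. EXPA1, an expansin of wall loosening chosen after its values were seen, had an effect of -0.70 at 0.5 h and -2.31 at 1 h, so its fall was mostly later. Of 21 clock genes the authors' deposited table marked 9 as higher and none as lower. CDF1, a repressor of flowering genes, rose from 11.9 to 33.8 FPKM, BOA from 9.22 to 22.7 and CDF3 from 12.0 to 25.6. Heat shock genes had a median of -0.18 at 0.5 h and 1.19 at 3 h, with HSFA6A rising from 0.236 to 19.3 FPKM and the chaperone HSP90.1 falling from 14.1 to 4.92 at 0.5 h. Cell cycle genes had a median of -0.16 over 17 members, and by the calls of the authors' deposited table AUR1, MCM5 and PCNA1 fell. Of 44 microRNA targets kept, none was 2-fold apart, where 3.7% of all kept genes were 2-fold higher and 2.15% lower. The authors' deposited table marked 2 of the 44 as higher and 7 as lower. The largest effects among these targets were those of SPL9, at -0.72, HAM3, at 0.72, TCP10, at -0.71, and CSD2, at -0.67.

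**Figure D5:**
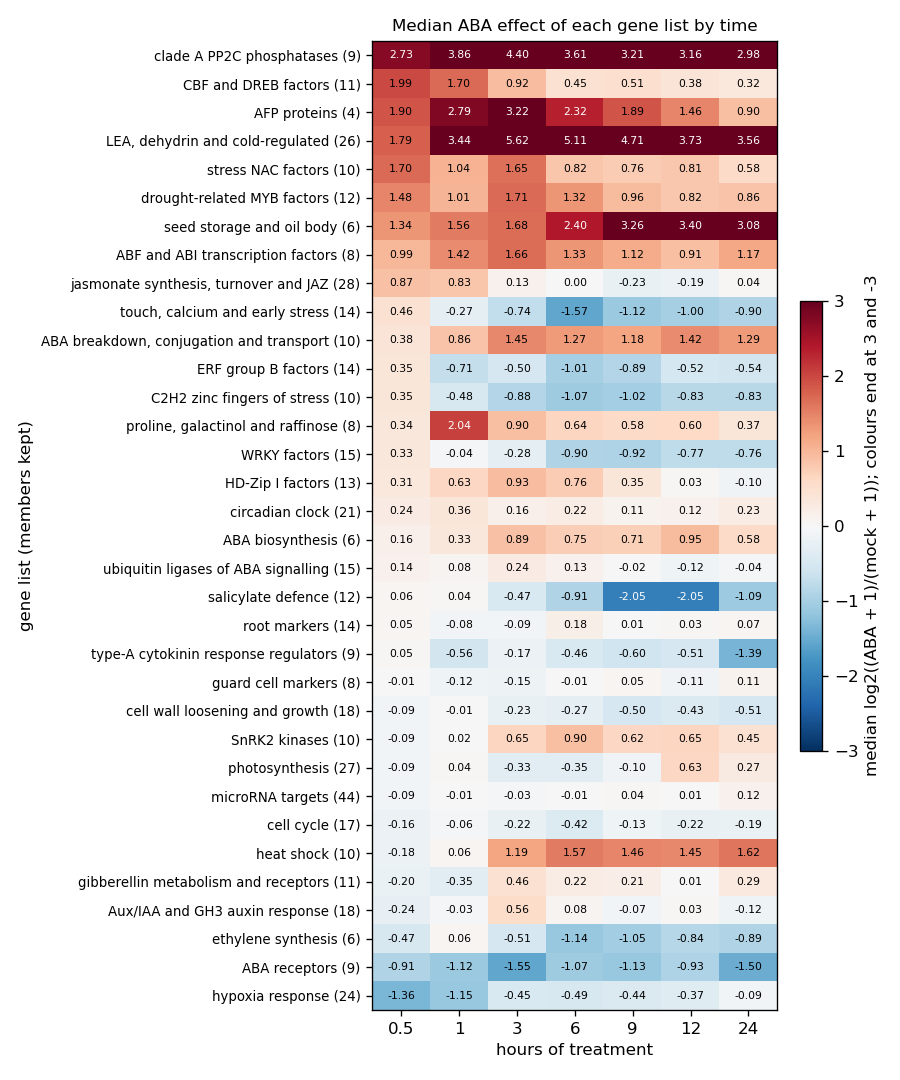
Median log2((ABA + 1)/(mock + 1)) of the kept members of each of 34 gene lists at each time, in the order of the medians at 0.5 h. The PP2C phosphatases lead at 0.5 h with 2.73 and the hypoxia list is lowest with -1.36. The CBF and DREB list is highest at 0.5 h. The ERF, zinc finger, WRKY, touch, type-A cytokinin and root lists are above 0 at 0.5 h and below 0 at 1 h. Some of these medians lie close to 0, such as -0.04 for WRKY and -0.08 for root at 1 h.

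The photosynthesis, root and guard cell lists differed little in sum between the pools of 0.5 h, while the seed list was higher under ABA. The 27 photosynthesis genes summed to 119342 FPKM under mock and 109713 under ABA, and their median effect was -0.09. The authors' deposited table marked 1 of them, PSAN, as lower. The root list summed to 255 and 254 FPKM with a median of 0.05 over 14 genes, so both leaf and root transcripts were present. By the calls of the authors' deposited table CASP1 of the endodermis, COBL9 and EXPA7 rose, and IRT1 and PHT1;1 fell. The guard cell list summed to 46.4 and 44.3 FPKM, but the authors' deposited table marked 2 of its 8 genes as higher and 3 as lower. KAT1, a potassium channel, fell from 7.17 to 2.76 FPKM and ALMT12, an anion channel, rose from 5.81 to 12.7. The seed list summed to 24.1 FPKM under mock and 74.5 under ABA, with a median effect of 1.34. Of its 6 genes kept, 4 rose by the calls of the authors' deposited table, with PER1, a peroxiredoxin, going from 3.24 to 14.9 FPKM. In bulk RNA of seedlings, fewer cells of a type and less RNA per cell cannot be told apart.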

How the data were processed

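RNA of Col-0 seedlings was sequenced by the authors. Reads were checked with FastQC and aligned with STAR to TAIR10, per the submitters' processing notes, which name no versions. The sources used here give no quantifier, test, threshold or pooling method. The authors' deposited table holds 1 FPKM value per gene and pool of 2 libraries; the unit was inferred from the values, since the header names none, and strand use in counting is not given. Overlapping and antisense genes can therefore share reads. The authors' yes or no calls were taken as deposited. The 7 columns of log2 ratios were not used for any effect. The column of 0.5 h served only as a check. It differed by at most 0.0013 from the log2 ratio of the 2 pools, where both were above 0. Implied fragments per pool were estimated from the step between low values.

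Effects are log2((ABA + 1)/(mock + 1)) on the 20034 genes that reached 1 FPKM in 2 or more of the 14 pools. A planned fit over libraries was not possible. The effect at 0.5 h was compared with the mean of the 6 later times by limma 3.58.1 in R 4.3.3 (trend, Benjamini-Hochberg over all genes, threshold 0.05). The code was tried on simulated data with flat mock levels and noise independent between pools. Those data hold no steady change over time and do not show how the fit treats it. The fit assumes that effects at different times are independent. Upstream windows of 250 bases were read from the TAIR10.1 genome, whose gene models were matched by locus for 32813 entries. Gene families with near-identical copies were kept as deposited.

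The genes, lists and comparisons were chosen with earlier results of these data known. Named, except 1 gene not reported here, are the 15 largest rises and falls with the authors' call and a mean of at least 5 FPKM, genes flat or opposite later, and in each of 34 lists the 4 largest effects with any count of 5 or fewer. The 14 pools summed to 903608 to 1173230 FPKM. Alternatives covered the pseudocount, filter, fold, window, scaling and the times entered.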

Additional observations from a re-analysis of the deposited data

Results flagged for a closer look

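Of the genes 2-fold higher and 2-fold lower at 0.5 h, 61 and 29 stood 2-fold the other way at a later time. The rule named the 6 largest opposite effects in each direction, among genes with a mean of at least 5 FPKM. Only these named genes were searched for the authors' call at both times, and 4 of them had it. The difference between the times did not pass limma for any of the 4, with Benjamini-Hochberg adjusted p-values of 0.418 to 0.541. CBP60G, a calmodulin-binding activator of salicylate synthesis, had an effect of 1.45 at 0.5 h and -3.34 at 9 h. Its mock pools went from 3.27 to 14.1 FPKM between those times and its ABA pools from 10.7 to 0.494. AT2G32200, a cysteine-rich transmembrane protein, had effects of 1.27 at 0.5 h and -1.03 at 24 h. AT1G14960, of the polyketide cyclase and lipid transport family, had effects of 1.11 at 0.5 h and -2.69 at 3 h. ADH1 had an effect of -2.71 at 0.5 h and 3.16 at 6 h.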

How the results depend on the processing

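No paired analysis was possible because the deposited columns pool the 2 libraries of a group and carry no replicate number, and leaving out a library could not be run for the same reason. Counts at 2-fold followed the pseudocount and the limit. The 742 higher genes were 385 with a pseudocount of 5, 1651 at 1.5-fold, 161 at 4-fold and 2049 by the authors' call. The 431 lower genes were 739 with a pseudocount of 0.1, and 185, 1362, 70 and 2254 under the same 4 settings. Of listed genes 33 were 2-fold lower, 21 with a pseudocount of 5 and 80 by the authors' call. Genes higher at both 0.5 and 1 h (564) were 302 with a pseudocount of 5, 1240 at 1.5-fold and 1526 by the authors' call. Those higher at 0.5 and 24 h (376) were 566 with a pseudocount of 0.1, and 165, 849 and 1073 under those 3 settings. Lower genes shared with 1 h (264) were 419, 124, 775 and 1145 under these 4 settings, and those shared with 24 h (168) were 322, 63, 590 and 1020. With a pseudocount of 5, the ABA pool lay outside the mock range for 378 higher and 134 lower genes and the mock pool for 39 and 74. The mock pool lay lowest for 180 higher genes when only 0.5, 1 and 3 h were used. The limma comparison of 0.5 h with the later times gave 303 higher and 421 lower genes without the 1 h pools, 1 higher without 12 h, 17 higher and 11 lower with no filter, and 2 lower with a pseudocount of 0.1, against 0 in each direction. The ABRE-type share of higher genes was 35.4% at 4-fold, and 32.8% in windows reaching 50 bases past the start, where all genes had 12.0%. The cause of these changes was not tested, beyond what each limit itself sets. In single genes, lists and the other motifs, 422 values kept their place, 62 moved and 8 lost the 2-fold limit. A change of pseudocount or a shift by the small median effect cannot turn the direction of a named gene. Direction was therefore not tested. With pools in place of libraries, the spread between libraries is unknown, and genes near 1 FPKM rest on few fragments.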

Other observations

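The other genes named by the rule for opposite effects turned between the first and the later times without the authors' call at both. The U12 small nuclear RNA, of 175 bases, was listed at 0 in the mock pool and 17.6 FPKM in the ABA pool at 0.5 h, and had an effect of -4.81 at 12 h. In the authors' deposited table it has no call in the direction of 0.5 h at any time. AT4G22230, a defensin-like protein with a transcript of 369 bases, stood at 1.53 and 10.5 FPKM at 0.5 h and had an effect of -2.84 at 24 h. AT5G45430, a protein kinase, had effects of 1.06 at 0.5 h and -3.07 at 3 h. AT2G44130, a kelch-repeat protein, stood at 16.0 and 4.78 FPKM at 0.5 h and had an effect of 3.83 at 12 h. AT5G63270, of the RIN4 family, had effects of -1.86 at 0.5 h and 1.83 at 3 h. The uncharacterized AT2G35850 and AT4G37483, with transcripts of 243 and 228 bases, and the chloroplast entry ATCG01020 were listed at 0 in the ABA pool of 0.5 h and were 2-fold higher under ABA at a later time.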
